A study of Mesocricetus auratus with 6 samples.

Results

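Matrix proteases and their inhibitors were followed through 9 genes in golden hamster (Mesocricetus auratus) uterus: the metalloproteases MMP2, MMP9 and MMP14, their inhibitors TIMP1, TIMP2 and TIMP3, the cathepsins CTSB and CTSL, and the urokinase-type plasminogen activator PLAU. The members were all probe sets that the platform annotation assigns to these symbols, 19 of 22215 tested, or 9 of 11963 genes. Total RNA came from untreated animals on day 5 of pregnancy, either from uterine tissue around an implanting embryo (implantation sites) or from tissue with no embryo (interimplantation sites). There were 3 arrays in each group, labelled as biological replicates. The design text speaks of 3 animals, and no label ties an array to an animal, so the p-values measure only the spread between these arrays. The Affymetrix array carried probes for human transcripts, and how well a probe set reads its hamster counterpart depends on how alike the sequences are. A reference list of hamster genes held 8 of the 9 symbols.

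Implantation requires the embryo to contact and enter a uterine wall held together by collagens and other matrix proteins. MMP2 and MMP9, the gelatinases, cut denatured collagen and basement membrane collagen. MMP14 is a membrane-bound protease that cuts fibrillar collagen and activates the MMP2 proenzyme, a step in which TIMP2 acts as a bridge. The TIMPs block metalloproteases. TIMP1 binds the MMP9 proenzyme and TIMP3 is held in the matrix. Urokinase turns plasminogen into plasmin, and cathepsins B and L are lysosomal cysteine proteases that can also act outside the cell.

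None of the 9 genes passed the test between implantation and interimplantation sites, and the 2 members with the smallest p were inhibitors that pointed in opposite directions. TIMP1 was 1.31-fold higher at implantation sites (log2 0.39 ± 0.10 SE, unadjusted p = 0.00303, limma adjusted p = 0.130). TIMP2 was 1.15-fold lower (log2 −0.20 ± 0.08 SE, unadjusted p = 0.0291, limma adjusted p = 0.392). With all arrays in the fit, the proteases differed by at most 1.14-fold, in MMP9. Without implantation site 1, MMP9 was at log2 0.10, CTSL at −0.25 and PLAU at −0.22 at its brighter probe set, none of which passed. Values are log2 signals, differences are log2 implantation minus interimplantation site, SE is limma's standard error, and adjusted p-values are Benjamini-Hochberg values of limma over all probe sets with a threshold of 0.05.

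Of the 19 member probe sets 0 were higher and 0 lower past the threshold in limma's test, against 0.702% of all probe sets higher and 0.356% lower. With no adjustment, a p under 0.05 was found for 1 that was higher, TIMP1, and 1 that was lower, TIMP2, where 5.27% and 5.23% of all probe sets lay. The groups did not overlap for 2 probe sets that were higher, of TIMP1 and MMP14, and 1 that was lower, of TIMP2. Such separation was found for 7.72% of all probe sets in the higher direction and 8.3% in the lower. The median difference of the members was −0.01, and that of all probe sets was −0.01 as well. The median size of a difference, whatever its sign, was 0.09 for the members and 0.07 for all probe sets. These shares are near the background.

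**Figure D1:**
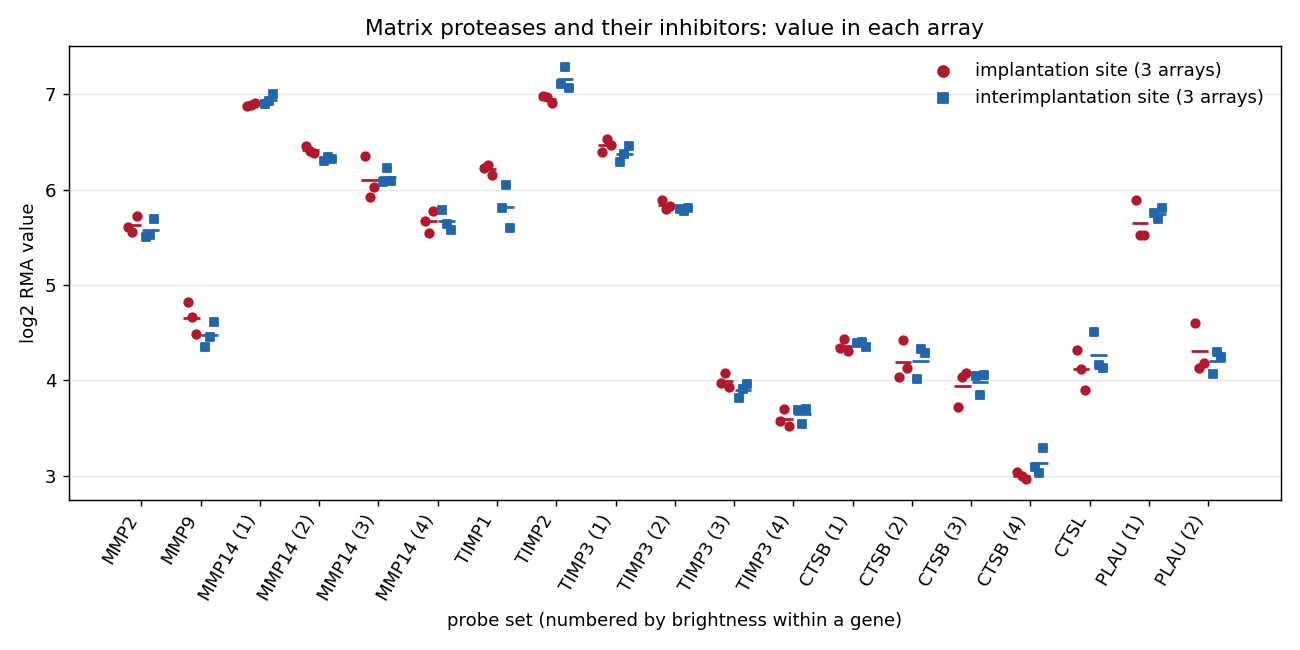
Log2 RMA value (vertical axis) of each of the 19 member probe sets (horizontal axis, numbered from bright to dim within a gene) in the 3 implantation arrays (red circles) and the 3 interimplantation arrays (blue squares), with group means as lines. The groups separate for TIMP1 (higher at implantation sites), TIMP2 (lower) and the second MMP14 probe set (higher), and overlap for the other 16; heights of different probe sets are not comparable.

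TIMP1, read by probe set 201666_at, had values of 6.22, 6.26 and 6.16 in the implantation arrays and 5.81, 6.05 and 5.60 in the interimplantation arrays. All implantation arrays lay above all interimplantation arrays, and they lay close together while the interimplantation arrays were spread. The group means were 6.21 ± 0.05 and 5.82 ± 0.23 (SD, n = 3 arrays per group). The 95% interval of the difference ran from 0.16 to 0.62 on the log2 scale. Only 1.7% of all probe sets had a difference as large in either direction. Without interimplantation site 2, the highest of its group, the difference was 0.51 and passed (limma adjusted p = 0.0411). Leaving out any other array gave differences from 0.28 to 0.42 that did not pass, with limma adjusted p up to 0.351.

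TIMP2, read by 203167_at, had values of 6.98, 6.97 and 6.91 in the implantation arrays and 7.11, 7.29 and 7.07 in the interimplantation arrays. Every implantation array was below every interimplantation array. The means were 6.95 ± 0.04 and 7.16 ± 0.12 (SD, n = 3 arrays per group), and the 95% interval of the difference ran from −0.38 to −0.02. A difference of this size or larger was found for 9.98% of all probe sets. The highest array of the interimplantation group, site 2, was the same for TIMP1 and TIMP2. Without it TIMP2 was at −0.13 (limma adjusted p = 0.626).

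Within an array, the TIMP1 value minus the TIMP2 value was −0.76, −0.71 and −0.75 at implantation sites and −1.29, −1.24 and −1.47 at interimplantation sites. The implantation values lay close together and above all interimplantation values. This separation had to follow, since TIMP1 was higher and TIMP2 lower in every implantation array, and it adds no result of its own. The mean of this quantity differed by 0.60 between the groups. It was chosen after the values were seen and is given without a test, and its level has no meaning because 2 probe sets are involved.

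**Figure D2:**
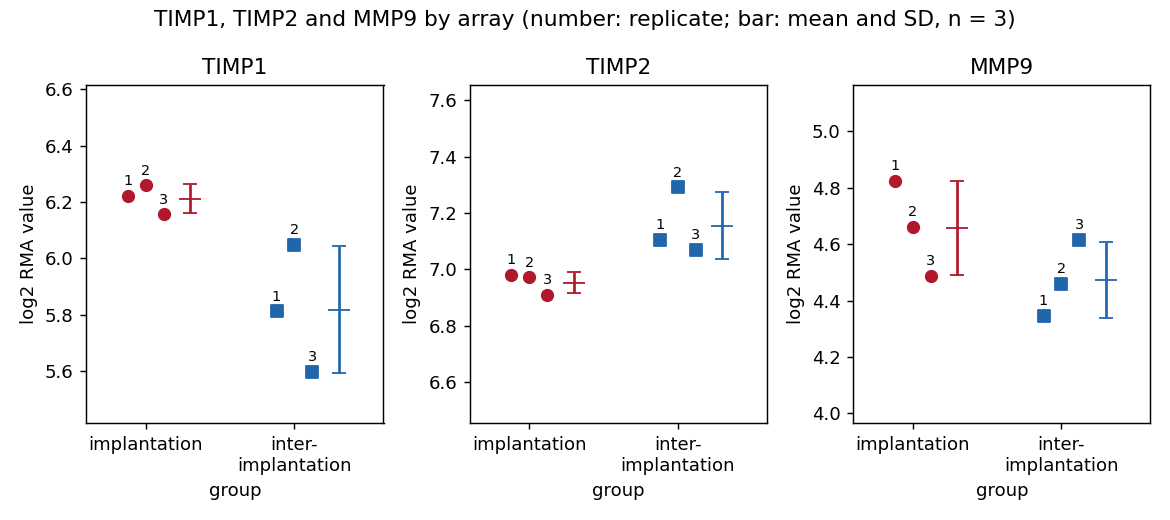
Log2 RMA value (vertical axes, each spanning the same range) of TIMP1, TIMP2 and MMP9 in each array, by group (horizontal axis), numbered by replicate, with the mean and SD (n = 3) beside the points. TIMP1 is higher in every implantation array, TIMP2 is lower in every implantation array, and the MMP9 groups overlap.

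TIMP3 was read by 4 probe sets, none of which passed. At the brightest, 201149_s_at, the implantation arrays had 6.40, 6.53 and 6.47 and the interimplantation arrays 6.28, 6.38 and 6.45. The groups overlapped, since implantation site 1 lay below interimplantation site 3, and the difference was 0.09 ± 0.08 SE (limma adjusted p = 0.743). The other probe sets were at 0.05, 0.10 and −0.05 (201148_s_at, 201147_s_at and 201150_s_at). Across the arrays these probe sets varied together only in part, with Pearson correlations from −0.28 to 0.89 over 6 arrays and 5 of 6 pairs above 0. The last 2 probe sets were below the median brightness of 4.19.

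Among the proteases MMP9, the gelatinase B gene, stood highest. Its implantation arrays had values of 4.82, 4.66 and 4.49 and its interimplantation arrays 4.35, 4.46 and 4.61. The lowest implantation array was under the highest interimplantation array, so the groups overlapped. The difference was 0.18 ± 0.10 SE (95% interval −0.04 to 0.41, limma adjusted p = 0.577). Leaving out single arrays moved it from 0.10 without implantation site 1 and 0.12 without interimplantation site 1 to 0.27 without implantation site 3.

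MMP2, the gelatinase A gene, had values of 5.61, 5.56 and 5.72 at implantation sites and 5.50, 5.52 and 5.69 at interimplantation sites. The groups overlapped over most of their range. The difference was 0.06 ± 0.08 SE (95% interval −0.12 to 0.24, limma adjusted p = 0.872). It was smallest without implantation site 3 (0.013), at 0.023 and 0.032 without interimplantation site 1 or 2, at 0.093 without implantation site 2 and largest without interimplantation site 3 (0.12).

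MMP14, the activator of MMP2, was bright at all 4 of its probe sets, at brightness percentiles of 85.8 to 98.0 among all probe sets. At the brightest, 160020_at, the values were 6.87, 6.89 and 6.91 against 6.90, 6.93 and 7.01, which overlapped and gave −0.05 ± 0.07 SE (95% interval −0.21 to 0.10). At the next, 217279_x_at, they were 6.46, 6.40 and 6.39 against 6.30, 6.34 and 6.32, so all implantation arrays were higher, by 0.09 ± 0.07 SE (limma adjusted p = 0.705). The ending _x_at marks a probe set that may also read other transcripts. The remaining probe sets, 202828_s_at and 202827_s_at, were at −0.03 and 0.00, and in the first of these implantation site 1 was highest at 6.35 against 5.92 and 6.03 in the rest of its group. The 4 probe sets did not vary together across the arrays, with correlations from −0.57 to 0.30 and 2 of 6 pairs above 0, so the direction of MMP14 depends on which probe set is read.

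PLAU, which encodes urokinase, pointed in opposite directions at its 2 probe sets. At 205479_s_at the values were 5.89, 5.53 and 5.52 at implantation sites and 5.75, 5.69 and 5.80 at interimplantation sites, a difference of −0.10 ± 0.10 SE. Implantation site 1 was above every interimplantation array there, and the other implantation arrays were below all of them. At 211668_s_at the values were 4.60, 4.13 and 4.18 against 4.07, 4.29 and 4.25, a difference of 0.10 ± 0.12 SE. Implantation site 1 was again the highest array, and the probe sets correlated at 0.63 over the 6 arrays. Without implantation site 1 the differences were −0.22 (limma adjusted p = 0.382) and −0.05 (limma adjusted p = 0.929).

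The cathepsins lay slightly below 0 at all 5 of their probe sets, 4 of which read CTSB. Of the 5, only 2 were at or above the median brightness of all probe sets. Among all 22215 probe sets, 11912 had differences below 0. CTSL, read by 202087_s_at alone, had values of 4.32, 4.12 and 3.90 at implantation sites and 4.51, 4.15 and 4.13 at interimplantation sites. The ranges overlapped, and the difference of −0.15 ± 0.12 SE had a 95% interval from −0.42 to 0.12 (limma adjusted p = 0.745). It was −0.25 without implantation site 1, and −0.04 and −0.03 without implantation site 3 or interimplantation site 1. At the brightest CTSB probe set, 200838_at, the values were 4.34, 4.43 and 4.30 against 4.39, 4.40 and 4.35, a difference of −0.02 ± 0.07 SE (95% interval −0.18 to 0.14). The further CTSB probe sets were at −0.01, −0.04 and −0.14 (200839_s_at, 213274_s_at and 213275_x_at). The largest of these was read at the dimmest member probe set, with means of 3.00 and 3.13. Leaving out single arrays turned the sign at 3 of the 4 CTSB probe sets. Across the arrays the CTSB probe sets varied together only in part, with Pearson correlations from −0.03 to 0.56 over 6 arrays and 5 of 6 pairs above 0.

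**Figure D3:**
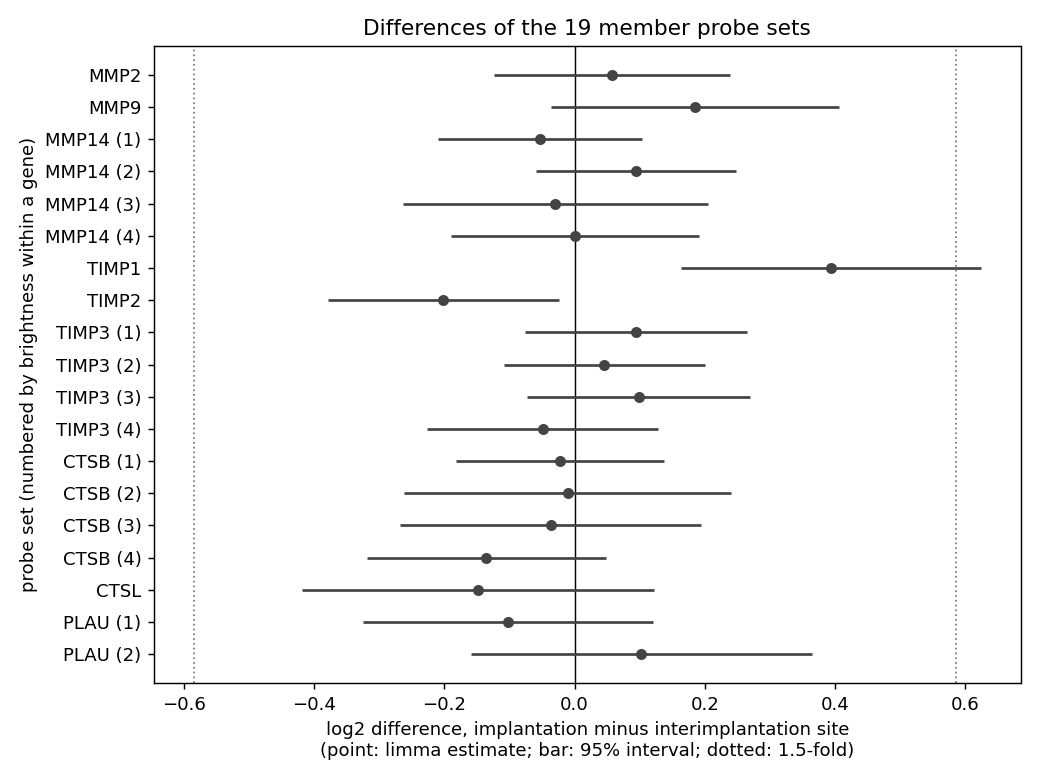
Log2 difference, implantation minus interimplantation site (horizontal axis), of each of the 19 member probe sets (vertical axis, numbered from bright to dim within a gene), with the limma estimate as a point and its 95% interval as a bar; dotted lines mark 1.5-fold. The intervals of TIMP1 (0.16 to 0.62) and TIMP2 (−0.38 to −0.02) lie on one side of 0, and TIMP1 has the one interval that crosses a 1.5-fold line.

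The intervals set a bound on what these arrays could miss. Of the 19 unadjusted 95% intervals, 13 lay wholly within a 1.25-fold difference in either direction and 18 within 1.5-fold, with TIMP1 as the exception. The SE of the members ran from 0.07 to 0.12, with a median of 0.08 that equalled that of all probe sets. Of the member probe sets 14 were at or above the median brightness. These bounds hold for the array signal and not for transcript number, since the match of the human probes to the hamster transcripts was not tested. In pieces of uterus, fewer cells of a type and less RNA per cell cannot be told apart.

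The wider protease system was read through 5 lists with 84 genes, of which 79 were measured, each at its brightest probe set. Of the 79, 56 were at or above the median brightness of all probe sets, as were 7274 of all 11963 genes. In the metalloprotease list 19 of 33 were, and ADAM9, MMP10, TLL1, MMP1 and MMP3 were below the 10th brightness percentile. A sign or a missing call at such dim probe sets says little about the gene. Of the 79 genes, 0 were higher and 0 lower past the threshold in limma's test, against 0.727% and 0.41% of all genes read this way. With no adjustment, 1 had a p under 0.05 and was higher and 3 were lower, against 5.79% and 5.28% of all genes. The groups did not overlap for 2 that were higher and 4 that were lower of the 79, against 8.36% and 8.09% of all genes. The median difference over the 79 genes was −0.03, and that over all 11963 genes was −0.01.

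Among 33 further metalloproteases, 18 differences were above 0 and 15 below, with a median of 0.01. ADAM10, a membrane sheddase that releases growth factors and Notch fragments, was lowest, with 6.95, 7.09 and 6.96 at implantation sites and 7.12, 7.35 and 7.13 at interimplantation sites. Its groups did not overlap (log2 −0.20 ± 0.09 SE, limma adjusted p = 0.439). BMP1, the procollagen C-proteinase, had 6.85, 6.93 and 6.96 against 6.64, 6.67 and 6.88, with overlap (log2 0.18 ± 0.08 SE, limma adjusted p = 0.483). In the list of 10 inhibitors and activators of metalloproteases, PCOLCE, which enhances BMP1 activity on procollagen, was at 0.20 ± 0.09 SE (limma adjusted p = 0.496). THBS2, a matricellular protein that takes part in the clearance of MMP2, was at 0.14 ± 0.09 SE, and the list median was −0.02.

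The plasminogen list held 13 measured genes with a median of −0.01. The 2 with the smallest p were the subunits of one cell surface complex that binds plasminogen and its activators. ANXA2, annexin A2, had 6.93, 7.06 and 7.10 at implantation sites and 6.82, 6.92 and 6.80 at interimplantation sites (log2 0.18 ± 0.08 SE, limma adjusted p = 0.447). S100A10, its partner p11, had 4.96, 4.71 and 4.76 against 4.63, 4.69 and 4.57 (log2 0.18 ± 0.08 SE, limma adjusted p = 0.509). In both genes all implantation arrays were above all interimplantation arrays, with the closest arrays nearly equal. The probe set of ANXA2 ends in _x_at.

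Of 14 further cathepsins, 11 had differences below 0 and 3 above, with a median of −0.08. Over all genes, 6274 of 11963 had differences below 0. CTSG had the largest difference above 0 in the list, at 0.22 (limma adjusted p = 0.531). CTSA, the lysosomal protective protein, had values of 5.22, 5.24 and 5.20 at implantation sites and 5.41, 5.51 and 5.40 at interimplantation sites. Its groups were well apart, at −0.22 ± 0.07 SE (unadjusted p = 0.0106, limma adjusted p = 0.261). CTSF, a cysteine cathepsin like CTSB and CTSL, had 5.41, 5.07 and 5.26 against 5.61, 5.35 and 5.50, with overlap (log2 −0.23 ± 0.10 SE, limma adjusted p = 0.431). Among 9 genes of cathepsin inhibition and sorting the median was −0.07. SERPINB1, an inhibitor of neutrophil proteases and cathepsin G, was at −0.19 ± 0.09 SE (limma adjusted p = 0.500), and CSTB, cystatin B, an inhibitor of cathepsins B, H and L, was at −0.14 ± 0.07 SE (limma adjusted p = 0.532). In both inhibitors the implantation arrays were all lower.

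**Figure D4:**
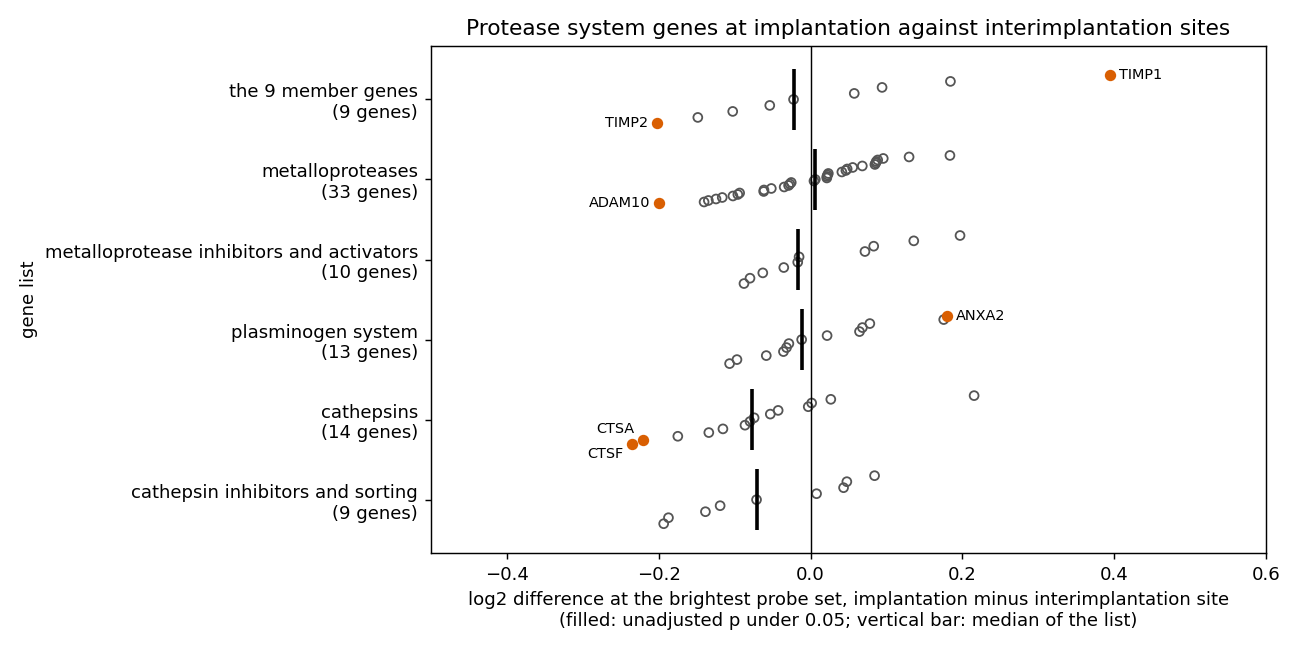
Log2 difference, implantation minus interimplantation site (horizontal axis), of each gene at its brightest probe set, for the 9 genes and 5 lists of related genes (vertical axis); filled points have an unadjusted p under 0.05 and vertical bars are list medians. TIMP1 at 0.39 lies apart from the other points, and the cathepsin lists have medians of −0.08 and −0.07.

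TIMP1 was the member with the smallest p, and the genes most like it were sought by the Pearson correlation over the 6 arrays among genes with a mean at or above the median brightness. The 5 highest were NUP153 (0.99), PPP1R14D (0.98), P3H2 (0.98), PSMD6 (0.98) and PTGS1 (0.98). With 6 arrays in 2 groups such correlations are a description of these arrays. P3H2, which hydroxylates prolines of basement membrane collagen, had 4.63, 4.66 and 4.64 at implantation sites and 4.32, 4.59 and 4.18 at interimplantation sites. Its interimplantation arrays had the same order as those of TIMP1. So did those of the other genes named, all of which were picked for their likeness to TIMP1.

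Values of the whole series that bear on these results were the following. Array medians lay between 4.18 and 4.20, and arrays of a group correlated at 0.989 to 0.995. The 3′ minus 5′ signal of the actin control, a measure of RNA quality, was −2.08 ± 0.22 at implantation sites and −1.70 ± 0.15 at interimplantation sites (SD, n = 3; exact permutation p = 0.1, two-sided, the smallest possible). For GAPDH it was −0.20 ± 0.16 and 0.13 ± 0.17 (exact permutation p = 0.2, two-sided). These control probe sets are human too, so their levels also depend on the match to hamster transcripts, which was not tested. The 10 smooth muscle markers were split, with 6 differences below 0 and 4 above. TAGLN (−0.56) and ACTG2 (−0.80) fell, MYLK was at −0.53 and CNN1 at −0.23, while ACTA2 was at 0.15, higher in every implantation array, LMOD1 at 0.10, and SMTN, MYH11, DES and SYNM at 0.02, 0.00, −0.02 and −0.07. The mean level of the list was 5.29 to 5.31 in implantation arrays and 5.43 to 5.57 in interimplantation arrays. Of 9 stromal and decidual markers COL1A1 rose (0.56) and PDGFRA fell (−0.66). COL3A1 was at 0.26, HAND2 at 0.18, IGFBP1 and PRL at 0.04, PDGFRB at −0.04, VIM at −0.22 and DCN at −0.25. At an unadjusted p under 0.05 in limma's test, 3 of the list were higher and 2 lower. The level of this list was 6.74 to 6.87 in implantation arrays and 6.77 to 6.90 in interimplantation arrays. The stromal markers VIM (8.92 and 9.14) and COL3A1 (9.38 and 9.12) were bright in both groups. In the epithelial, endothelial, leukocyte, neutrophil and trophoblast lists 0 markers passed in limma's test, and 2 epithelial, 1 leukocyte and 1 trophoblast marker were lower at an unadjusted p under 0.05, KRT8 counting in the epithelial and the trophoblast list. These counts stand beside the 5.79% and 5.28% of all genes given for the wider system. List levels were 4.45 to 4.52 against 4.53 to 4.60 for endothelium and 4.69 to 4.72 against 4.74 to 4.80 for trophoblast, without overlap, and overlapped for epithelium, leukocytes and neutrophils. The level of the further cathepsins did not overlap either, at 4.91 to 4.94 against 4.98 to 5.01. How often the mean level of a list separates in these arrays was not computed. The part of RNA quality and cell makeup in the results of TIMP1, TIMP2 and the cathepsins was not tested.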

How the data were processed

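The deposited table held log2 signals, 1 for each array and probe set, which the authors computed by RMA (Partek 6.6), as the submitters' processing notes say. The log base and RMA settings were not given in the sources used here, and values from 1.65 to 12.1 were read as log2. RMA brings arrays to a common distribution, so a change of total RNA would not show. The number of arrays limits the precision.

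Of 22283 probe sets, 68 controls were left out. Genes were named from the platform annotation, which gave 1 gene to 19065 probe sets, several to 1043 and none to 2107; probe sets with several genes named none. The groups' difference was fitted per probe set (limma 3.58.1, R 4.3.3; lmFit and eBayes, two-sided, no covariate) and adjusted over all 22215 probe sets. The fit was tested on simulated data. Controls were compared with exact permutation tests.

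The members and lists were chosen with earlier results of these data known. Named were all member probe sets, from each list any gene past the threshold and the 2 with the smallest p, and the 5 genes most correlated with the member of smallest p; markers were named after their values were seen. Alternatives covered normalization, brightness filters, replicate blocks, the spread model, array weights and the summary per gene. Others left out single arrays, or all probe sets ending in _s_at or _x_at.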

Additional observations from a re-analysis of the deposited data

How the results depend on the processing

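Under 16 alternatives of the probe set fit, TIMP1 stayed higher (0.28 to 0.51) and TIMP2 lower (−0.24 to −0.13). These included repeated quantile normalization, cyclic loess and median centring, and only such normalizations could have turned the signs. Brightness filters, replicate blocks, the spread model and the choice by probe set ending leave the difference of a probe set unchanged. Leaving out or weighting arrays cannot turn the sign of groups that do not overlap. TIMP1 passed in 1 of the alternatives, without interimplantation site 2. The count of member probe sets higher thus ranged from 0 to 1 when single arrays were left out. So did the count of member genes at the brightest probe set. The counts of member probe sets lower and of other pathway genes were 0 throughout. Signs turned only for differences of up to 0.102 in size with all arrays in the fit, where the median size of the member probe sets was 0.094. Without single arrays the ranges were −0.055 to 0.059 for MMP14 202827_s_at, −0.15 to 0.058 for MMP14 202828_s_at, −0.058 to 0.0054 for CTSB 200838_at and CTSB as a gene, −0.12 to 0.069 for CTSB 200839_s_at, −0.11 to 0.077 for CTSB 213274_s_at and −0.045 to 0.19 for PLAU 211668_s_at. With array weights CTSB 213274_s_at was at 0.044, when the probe sets of MMP14 were averaged it was at 0.0029, and at its most variable probe set PLAU was at 0.10; the cause was not tested. No label says whether arrays with the same replicate number share an animal. The deviations of same-numbered arrays from their group means correlated at −0.0025 to 0.070, so no shared deviation was detected, and in a fit with a replicate block TIMP1 had an adjusted p of 0.0785 and TIMP2 of 0.370 in limma's fit, and the member counts stayed at 0. Over all probe sets the count higher fell from 156 to 86, 101 and 92 without implantation site 1, 2 or 3 and to 83 without interimplantation site 3. The count lower fell from 79 to 33 and 38 without implantation site 1 or 3 and to 42 without interimplantation site 2 or 3, and was 133 with array weights. Without probe sets ending in _s_at or _x_at, 37 and 20 of 11813 passed. That choice left no probe set of MMP9, TIMP3, CTSL or PLAU.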
